A study of Mus musculus with 60 samples.

Results

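The genes of calmodulin kinases and neuronal calcium sensors were followed through ribosome pulldown and bulk tissue of the mouse medial prefrontal cortex (mPFC). They are the CaMKII subunit genes Camk2a, Camk2b, Camk2d and Camk2g, the kinase gene Camk4, the pseudokinase gene Camkv, the neuronal calcium sensor genes Hpca and Ncald, and Necab2, which encodes another EF-hand protein. They were taken by gene name, and these 9 genes are 9 of the 55414 rows of the deposited table, 1 row each. Camk2a and Camk4 lie on chromosome 18, Camk2b on 11, Camk2d on 3, Camk2g on 14, Camkv on 9, Hpca on 4, Ncald on 15 and Necab2 on 8, and the table types all of them as protein coding. All 9 passed the filter on low counts in every fit. The samples were 60 RNA-seq libraries from DBA2/J mice, an inbred strain, expressing GFP-L10a, a ribosomal protein tagged with green fluorescent protein. In the IP libraries, RNA bound to tagged ribosomes was pulled down with an anti-GFP antibody, and the labels call the cell type aPVT projector. The Input libraries were bulk mPFC with no antibody, from the same kind of mice. Each fraction held 5 groups of 6 libraries, the 4 subtypes SA, SA:ANH, ANH and RES and the group NS. The series describes 5 days of social defeat stress (smSDS), in which a mouse is exposed to an aggressor. The labels neither spell out the group names nor say which groups were defeated, nor do they give ages, the promoter or virus that delivered the tag, or whether animals were pooled. Whether each library stands for an animal of its own is not stated, so p-values here describe the spread among libraries and may reflect technical variation alone.

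Calcium that enters a neuron is bound by calmodulin, and calcium-loaded calmodulin switches on the calmodulin-dependent kinases. CaMKII, built from the α, β, γ and δ subunits, is among the most abundant proteins of forebrain excitatory synapses and is known for its part in synaptic potentiation. CaMKIV acts mainly in the nucleus, where it phosphorylates CREB. Hippocalcin (Hpca) and neurocalcin δ (Ncald) belong to one family of neuronal calcium sensors, which bind calcium themselves and expose a myristoyl anchor that takes them to membranes.

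The sequences just upstream of 3 of these genes are shown because Necab2 and Hpca differed most between groups in the pulldown and Camk2b is a CaMKII subunit with a window in the same table. From RefSeq's promoter table (build GRCm38.p6), 7 windows for 5 of the 9 genes were kept, namely Camk2b, Camk2d, Camkv, Hpca with 3 windows, and Necab2. For the other genes no usable window was kept, which does not mean that RefSeq holds none. Each run below is the 250 bases before an annotated start, 5′ to 3′ on the gene's strand, and capitals mark the GC box GGGCGG read on either strand. The positions are chr8:119446469-119446718 (plus strand) for Necab2, chr4:129121748-129121997 and chr4:129121304-129121553 (minus strand) for the first and second Hpca windows, and chr11:6065749-6065998 (minus strand) for Camk2b.
Necab2: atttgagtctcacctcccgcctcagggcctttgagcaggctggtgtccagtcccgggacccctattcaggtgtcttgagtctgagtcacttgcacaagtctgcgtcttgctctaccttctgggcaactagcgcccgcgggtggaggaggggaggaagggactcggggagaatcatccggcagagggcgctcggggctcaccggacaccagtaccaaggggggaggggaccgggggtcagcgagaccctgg
Hpca, first window: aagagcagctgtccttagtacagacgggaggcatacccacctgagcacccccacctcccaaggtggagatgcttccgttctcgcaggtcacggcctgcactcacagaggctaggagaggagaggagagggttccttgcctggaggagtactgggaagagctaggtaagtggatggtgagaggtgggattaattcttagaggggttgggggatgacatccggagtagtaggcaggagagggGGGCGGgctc
Hpca, second window: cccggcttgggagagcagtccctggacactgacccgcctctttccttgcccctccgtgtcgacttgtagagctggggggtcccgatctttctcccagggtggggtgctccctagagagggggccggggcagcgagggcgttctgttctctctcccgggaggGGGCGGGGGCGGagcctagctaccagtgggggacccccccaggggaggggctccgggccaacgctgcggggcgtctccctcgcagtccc
Camk2b: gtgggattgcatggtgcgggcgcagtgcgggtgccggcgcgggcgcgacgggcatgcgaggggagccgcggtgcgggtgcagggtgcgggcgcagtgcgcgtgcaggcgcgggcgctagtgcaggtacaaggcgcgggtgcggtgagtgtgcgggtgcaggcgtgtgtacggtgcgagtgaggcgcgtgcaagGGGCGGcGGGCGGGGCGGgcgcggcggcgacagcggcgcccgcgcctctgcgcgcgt

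The Necab2 window held 0 GC boxes, the first Hpca window held 1, the second 2 and the Camk2b window 3, the last of which overlaps the one before it. Windows of Camk2d and Camkv held 3 each, and the third Hpca window 0. Of 32851 windows of the same length in the table, 32.7% held a GC box. The cAMP response element TGACGTCA, its core TGACG, the EGR1 site GCGTGGGCG and the TATA box TATAAA, each searched on both strands, had 0 matches in all 7 windows. The core lies within the full element, so those searches overlap. In the same 32851 windows their shares were 1.55%, 17.8%, 0.536% and 12.4%. A match is a description of letters, and its absence says only that these letters are not in the window. The Camk2b window had 78.4% G and C, the first and second Hpca windows 58.8% and 71.2%, and the Necab2 window 64%.

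Libraries held 19078928 to 26084170 counts in IP and 19116949 to 27073456 in Input, and the 9 genes had 662 to 39866 counts in single libraries. The labelled cell type was checked against marker lists. Of 10 excitatory neuron markers 8 stood higher in IP than in Input, and so did 7 of 8 layer 5 extratelencephalic markers. All 10 markers in each list of inhibitory neurons, oligodendrocytes, astrocytes, microglia and vessels stood lower in IP, as did 7 of 8 markers of layer 6 corticothalamic neurons. Markers of layer 2/3 and intratelencephalic neurons were mixed, with 3 of 8 higher in IP, 4 lower and 1 not passing. Among all genes, 32.8% passed as higher in IP and 42.6% as lower. Summed marker levels, in which the most abundant markers weigh most, were not equal between groups within IP. The summed level of 10 oligodendrocyte markers was 211 to 235 CPM (counts scaled to a common library size within the fraction) in SA, 149 to 180 in SA:ANH, 663 to 691 in ANH, 966 to 1079 in RES and 249 to 295 in NS. The summed level of 8 layer 5 extratelencephalic markers was 1425 to 1613 CPM in SA, 812 to 911 in SA:ANH, 954 to 1055 in ANH, 1200 to 1286 in RES and 1338 to 1484 in NS. The summed excitatory markers ranged over 3165 to 3392 CPM in SA, 3024 to 3563 in SA:ANH, 3537 to 3895 in ANH, 3323 to 3702 in RES and 3643 to 4037 in NS. The summed inhibitory markers reached 41.9 to 49 CPM in SA, 63.5 to 76.8 in SA:ANH, 94 to 113 in ANH, 124 to 134 in RES and 63.8 to 80 in NS. Of these 4 lists 0 markers were at 0 in every library of a group. In Input the oligodendrocyte sum also differed, at 3124 to 3248 CPM in SA, 2755 to 2957 in SA:ANH, 4373 to 4493 in ANH, 3744 to 3872 in RES and 2546 to 2706 in NS. The share of mitochondrial counts in IP was 0.0379% to 0.0506% in SA, 0.0241% to 0.0468% in SA:ANH, 0.0192% to 0.0284% in ANH, 0.0233% to 0.0295% in RES and 0.0177% to 0.0237% in NS, and neither SA nor SA:ANH overlapped NS. The part of these differences in the results below was not tested.

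In the pulldown Hpca was the most abundant of the 9 transcripts per length. CPM was divided by the gene length in the table, the longest GENCODE M21 transcript for all 9 genes, to set genes beside each other. The genes have 2 to 28 annotated transcripts in the table, and which of them are expressed was not examined. The order of genes and the shares below therefore rest on that choice of length. On that scale Hpca stood at 707 ± 134 CPM per kb in IP (SD, n = 30), against 564 ± 25 in Input. Camk2b followed at 253 ± 28.7 in IP against 219 ± 10 in Input, and Camk2a at 249 ± 35.7 against 210 ± 14.6. Camkv and Ncald came next in IP, at 223 ± 17.1 and 173 ± 23.7 CPM per kb. Necab2 stood at 78.9 ± 24.7 CPM per kb in IP, Camk4 at 33.5 ± 2.75, Camk2d at 18.7 ± 2.16 and Camk2g at 11 ± 1.88. The CaMKII message in IP was thus nearly all α and β, at 46.6% and 47.7% of the 4 genes' summed level per length, with 3.54% for δ and 2.12% for γ. In Input the shares were 46%, 48.1%, 3.1% and 2.81%.

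Necab2, whose protein binds adenosine and metabotropic glutamate receptors, was the gene most enriched by the pulldown among the 9. It averaged 156 ± 48.7 CPM in IP and 72.3 ± 8.7 CPM in Input (SD, n = 30 each, scaled over all 60 libraries), and its lowest IP library, at 91.9 CPM, lay above its highest Input library, at 88.8 CPM. The log2 fold change was 1.05 ± 0.026 (SE; adjusted p = 5.24e-43 by the quasi-likelihood test of edgeR, adjusted over all genes tested after Benjamini and Hochberg, as is every adjusted p below). It was the only one of the 9 genes whose fractions did not overlap, and 14.3% of all genes had fractions that did not. Camk4 and Camk2d were higher in IP by 0.41 ± 0.027 and 0.40 ± 0.031 on the log2 scale (adjusted p = 4.13e-21 and 9.05e-18). Hpca was higher by 0.30 ± 0.012, Camk2a by 0.23 ± 0.021 and Camk2b by 0.20 ± 0.017 (adjusted p = 1.52e-32, 5.76e-15 and 1.43e-16). Ncald and Camk2g were the genes lower in IP, at -0.39 ± 0.013 and -0.22 ± 0.037 (adjusted p = 5.51e-36 and 2.32e-07). Ncald averaged 644 ± 88.6 CPM in IP and 840 ± 34.2 CPM in Input. Camkv, at 731 ± 56.2 CPM in IP and 732 ± 46.2 CPM in Input, did not pass the test, with a 95% interval of -0.044 to 0.04 around a log2 fold change of -0.0021. With DESeq2's scaling its value was -0.048 and passed (adjusted p = 0.0278). Of the 9 genes, 6 stood higher and 2 lower, where 75.4% of all genes passed the test, 32.8% higher and 42.6% lower. The median of the 9 genes was 0.23, and that of all genes -0.084.

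**Figure D1:**
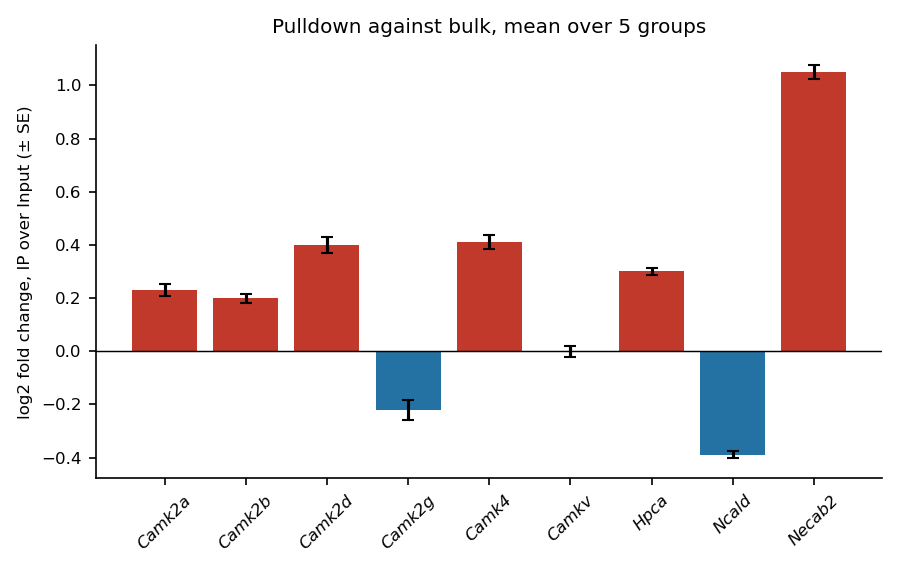
Log2 fold change of IP over Input for each of the 9 genes, as bars with the SE, averaged over the 5 groups of 6 libraries per fraction. Red bars were higher in IP, blue bars lower, and Camkv, at -0.0021, has no visible bar and did not pass the test. Necab2 stands apart at 1.05 and the other changes lie between -0.39 and 0.41.

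Against NS, 6, 6, 4 and 2 of the 9 genes passed the test in the pulldown of SA, SA:ANH, ANH and RES, and 2, 4, 2 and 1 in bulk. For RES the order of the fractions depended on the fit, with 3 genes in IP and 4 in Input under a replicate block and 3 in each with limma voom. In SA IP against NS IP, 1 gene rose and 5 fell, where 16.6% of all genes passed the test, 9.39% higher and 7.2% lower. In SA:ANH IP 3 rose and 3 fell, beside 19.7% of all genes (11.3% higher, 8.45% lower). In ANH IP 1 rose and 3 fell, beside 7.4% (3.02% higher, 4.37% lower). In RES IP 2 rose and 0 fell, beside 4.36% (2.25% higher, 2.11% lower). In Input, 1 rose and 1 fell in SA (2.83% of all genes), 3 rose and 1 fell in SA:ANH (5.65%), 0 rose and 2 fell in ANH (2.62%), and 0 rose and 1 fell in RES (3.23%). In bulk tissue, fewer cells that carry a transcript and less of it per cell cannot be told apart. Libraries of the subtype and of NS did not overlap for 5 of the 9 genes in SA IP (8.58% of all genes), 6 in SA:ANH IP (10.7%), 3 in ANH IP (4.03%) and 2 in RES IP (3.02%). The median log2 fold change of the 9 genes in IP was -0.12 in SA, -0.094 in SA:ANH, 0.032 in ANH and 0.10 in RES, beside 0.016, 0.011, -0.0011 and 0.007 for all genes. All 4 subtypes were set against the same NS libraries, so their differences are not independent of each other.

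**Figure D2:**
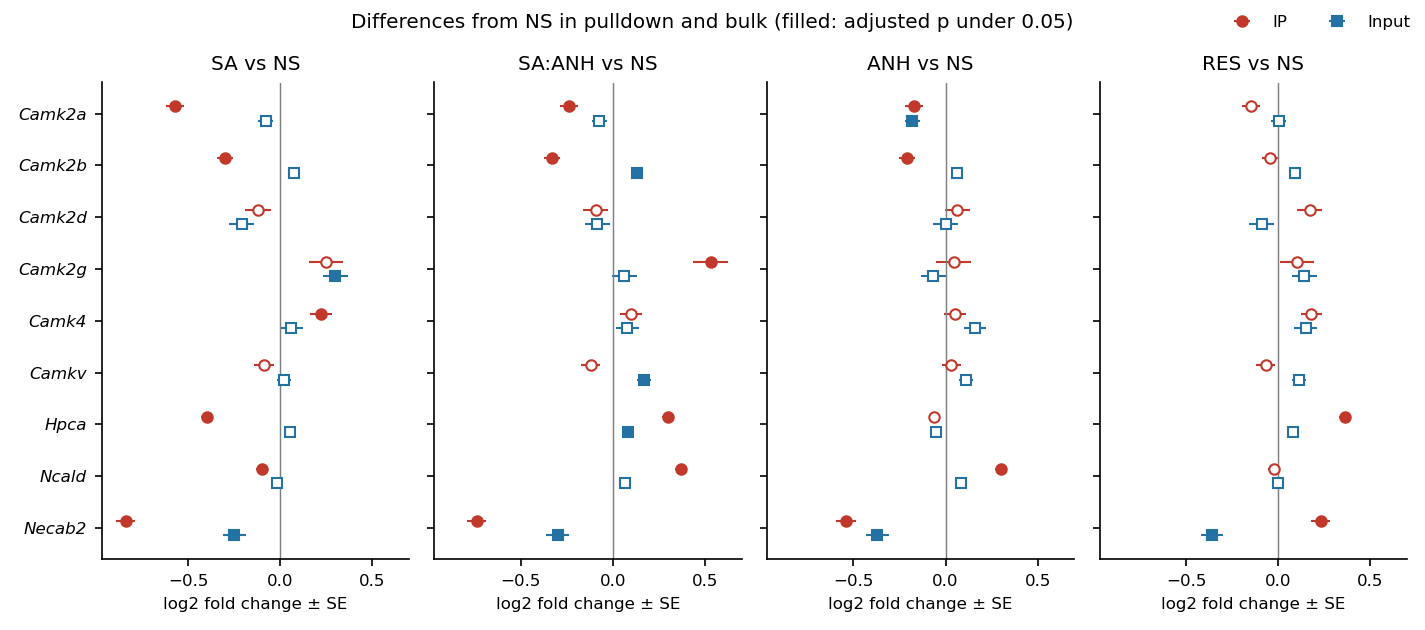
Log2 fold change of each subtype over NS, with the SE, for the 9 genes in IP (red circles) and Input (blue squares), 6 libraries per group. Filled symbols passed the test; Necab2 lies left of 0 in IP in SA, SA:ANH and ANH and right of 0 in RES, while in Input it lies left of 0 in all 4.

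Necab2 showed the widest spread between groups in the pulldown, with a mean in RES that was 2.1 times the mean in SA. The lowest, median and highest IP libraries were 90.5, 108 and 121 CPM in SA, 103, 116 and 120 in SA:ANH, 125, 131 and 142 in ANH, 218, 222 and 241 in RES and 178, 190 and 203 in NS. Every library of SA, SA:ANH and ANH therefore lay below every NS library, and every RES library lay above them. Against NS, Necab2 fell by 0.84 ± 0.054 on the log2 scale in SA (adjusted p = 6.73e-14), by 0.74 ± 0.053 in SA:ANH (adjusted p = 1.20e-12) and by 0.54 ± 0.053 in ANH (adjusted p = 7.10e-09). In RES it rose by 0.23 ± 0.053 (adjusted p = 0.00737). Against RES the differences were -1.07 ± 0.054 in SA, -0.97 ± 0.054 in SA:ANH and -0.76 ± 0.053 in ANH (adjusted p = 4.14e-17, 9.39e-16 and 1.84e-12). The order of the IP means was SA, SA:ANH, ANH, NS and RES from low to high, and each neighbouring pair differed except SA and SA:ANH (0.098 ± 0.054, adjusted p = 0.315). RES, where Necab2 was highest, also had the highest oligodendrocyte and inhibitory marker sums, while ANH had the next highest of both and a Necab2 level below NS. SA had the lowest inhibitory sum, the highest layer 5 sum and the lowest Necab2. Counted by marker against NS IP, 1 of 10 inhibitory markers passed as higher in ANH and 0 as lower. In SA 0 of them passed as higher and 3 as lower, while 4 of 8 layer 5 markers were higher and 2 lower. Among all genes, 3.02% passed as higher and 4.37% as lower in ANH IP, and 9.39% and 7.2% in SA IP. The part of these markers was not tested.

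In bulk mPFC Necab2 was lower in all 4 subtypes than in NS, RES included. Input libraries (lowest, median and highest) stood at 70.1, 72.8 and 77.7 CPM in SA, 62.9, 71.8 and 78.1 in SA:ANH, 63.8, 67.9 and 70.5 in ANH, 51.9, 70.5 and 73.3 in RES and 77.2, 89 and 89.9 in NS. ANH and RES libraries all lay below the NS libraries, and SA and SA:ANH overlapped them only at the lowest NS library. Necab2 fell by 0.25 ± 0.062 in SA (adjusted p = 0.0193), 0.30 ± 0.062 in SA:ANH (adjusted p = 0.00263), 0.37 ± 0.062 in ANH (adjusted p = 0.000203) and 0.36 ± 0.062 in RES (adjusted p = 0.000258). The difference from NS was unlike in the 2 fractions in 3 subtypes: IP minus Input, it was -0.62 ± 0.08 in SA, -0.47 ± 0.08 in SA:ANH and 0.59 ± 0.08 in RES (adjusted p = 5.66e-08, 1.46e-05 and 3.79e-07). In ANH the same contrast was -0.16 ± 0.08 (95% interval -0.32 to 0.0027, adjusted p = 0.303). Among all genes, 9.05%, 15.2%, 3.62% and 2.69% passed that test in SA, SA:ANH, ANH and RES. Of the 9 genes it called 4 lower and 0 higher in SA, 4 lower and 3 higher in SA:ANH, 1 lower and 1 higher in ANH and 0 lower and 2 higher in RES.

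**Figure D3:**
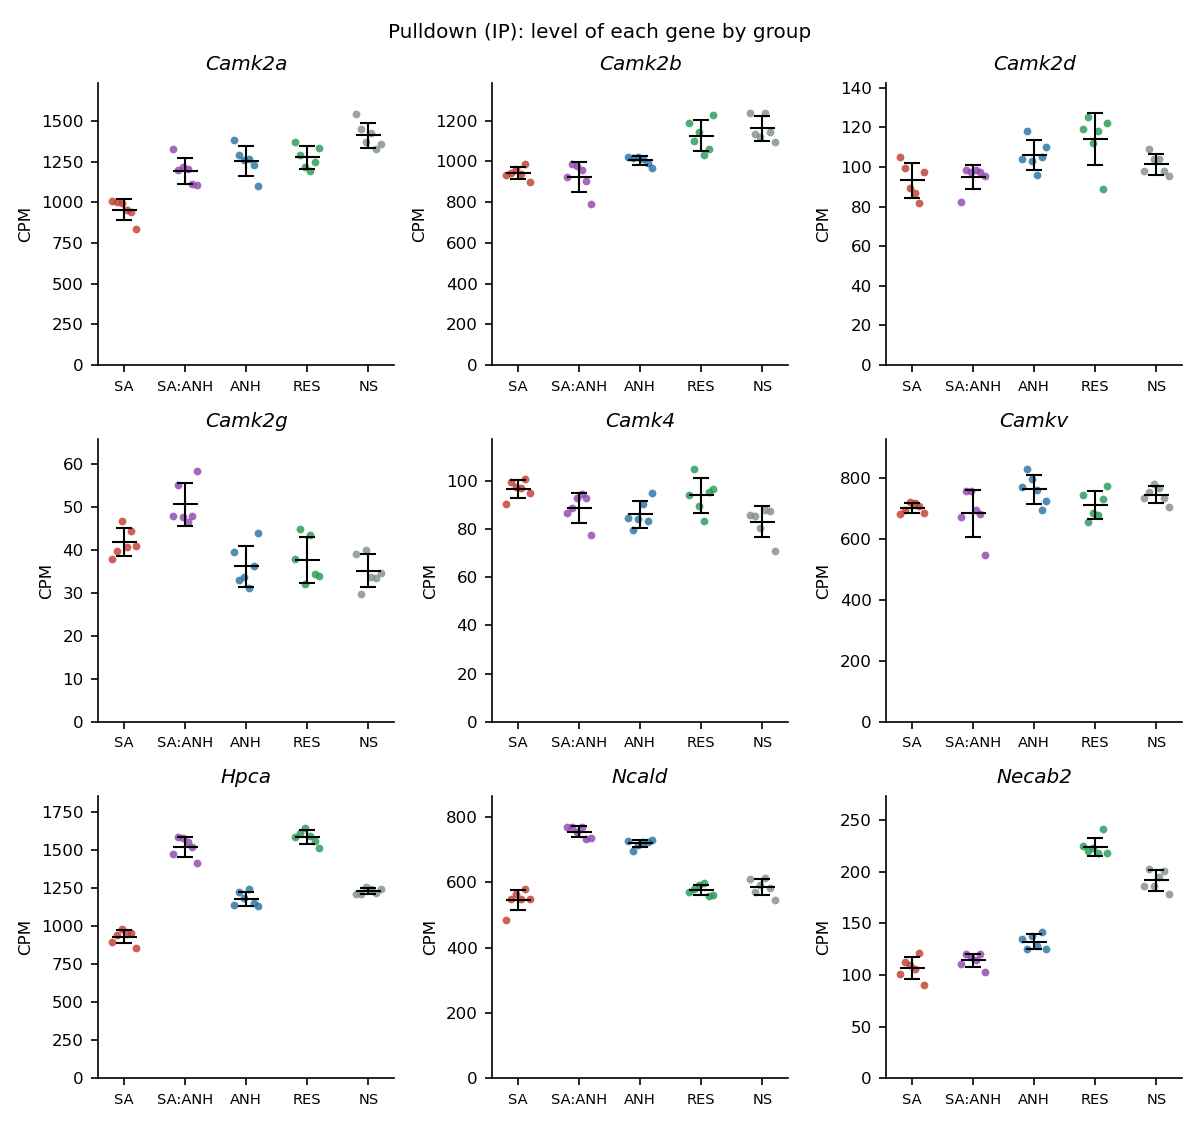
CPM of the 9 genes in each IP library (points, scaled within IP) with the mean and SD of each group of 6; every axis starts at 0. Necab2 and Hpca spread most between groups, and their RES libraries lie at 218 to 241 and 1512 to 1649 CPM, above all 6 NS libraries.

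Hpca, known for its part in the slow afterhyperpolarization of hippocampal neurons, split the subtypes in the pulldown. IP libraries ran (lowest, median and highest) at 859, 948 and 980 CPM in SA, 1414, 1536 and 1585 in SA:ANH, 1136, 1172 and 1244 in ANH, 1512, 1589 and 1649 in RES and 1212, 1231 and 1255 in NS. SA libraries lay below all others, SA:ANH and RES libraries lay above all others and overlapped each other, and ANH overlapped NS. Against NS, Hpca fell by 0.40 ± 0.031 in SA (adjusted p = 6.78e-12) and rose by 0.30 ± 0.031 in SA:ANH (adjusted p = 2.47e-09) and 0.36 ± 0.031 in RES (adjusted p = 1.83e-10). In ANH the value was -0.061 ± 0.031 (95% interval -0.12 to 0.0023, adjusted p = 0.273). SA:ANH and SA, which share a part of their label, differed by 0.71 ± 0.031 (adjusted p = 3.01e-18), the second smallest p of 16670 genes in that comparison. SA:ANH and RES did not differ beyond their spread (-0.06 ± 0.031, adjusted p = 0.232). In Input the group means of Hpca lay within 1.1 times of each other, from 994 ± 24.4 CPM in ANH to 1091 ± 41.1 CPM in SA:ANH. There it passed against NS in SA:ANH alone among the subtypes, at 0.08 ± 0.024 (adjusted p = 0.0381), a call lost with library totals as the scaling (0.059, adjusted p = 0.141), without a filter (adjusted p = 0.0856) and with the 12 libraries alone (adjusted p = 0.186). RES Input was nearly as far from NS, at 0.079 ± 0.024 (adjusted p = 0.0568), and all its libraries lay above those of NS. That value passed with a replicate block (adjusted p = 0.0317) and with limma voom (adjusted p = 0.0189). Hpca was also lower in ANH than in SA:ANH, SA and RES in Input: it stood at 0.13 ± 0.024 in SA:ANH over ANH (adjusted p = 0.00076), 0.11 ± 0.024 in SA over ANH (adjusted p = 0.00258) and -0.13 ± 0.024 in ANH over RES (adjusted p = 0.000657). The IP difference from NS exceeded the Input difference by 0.28 ± 0.036 in RES and 0.20 ± 0.036 in SA:ANH and was below it by -0.48 ± 0.036 in SA (adjusted p = 8.43e-08, 4.87e-05 and 1.10e-15).

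Ncald, the close relative of Hpca, rose against NS in SA:ANH IP, as Hpca did, and in ANH IP, but did not pass in RES IP. Its lowest, median and highest IP libraries were 486, 549 and 578 CPM in SA, 733, 761 and 769 in SA:ANH, 697, 724 and 728 in ANH, 558, 575 and 597 in RES and 545, 587 and 612 in NS. The libraries of both groups with ANH in their name lay above every other IP library, and SA, RES and NS overlapped. Ncald rose by 0.37 ± 0.033 in SA:ANH (adjusted p = 1.42e-10) and by 0.30 ± 0.033 in ANH (adjusted p = 6.96e-08), and fell by 0.10 ± 0.033 in SA (adjusted p = 0.0318). The SA call was lost when only the 12 libraries compared were fitted (adjusted p = 0.0569). In RES the value was -0.023 ± 0.033 (95% interval -0.09 to 0.044, adjusted p = 0.82). SA:ANH against ANH gave 0.069 ± 0.033 (adjusted p = 0.154) although their libraries did not overlap. In Input, Ncald passed against NS in none of the subtypes, at -0.019 ± 0.027 in SA, 0.065 ± 0.027 in SA:ANH, 0.085 ± 0.027 in ANH and -0.004 ± 0.027 in RES (adjusted p = 0.843, 0.164, 0.0827 and 0.964). Even so, all ANH Input libraries, at 871 to 899 CPM, lay above all NS Input libraries, at 770 to 868 CPM. The ANH value passed with limma voom (adjusted p = 0.0374) and in no other alternative. Ncald was lower in SA than in ANH in Input, at -0.10 ± 0.027 (adjusted p = 0.0111). The IP difference from NS was larger than that in Input by 0.27 ± 0.041 in SA:ANH and 0.22 ± 0.041 in ANH (adjusted p = 8.86e-07 and 0.000329). Ncald reads can be shared: 315 of its 8715 stretches of 100 bases (3.61%) also occur in transcripts of Gm28221, which is antisense to it, or Gm49397, and no source used here gives the strand setting of the counting. Whole numbers made up 1.67% of its 60 values and 35% of those of Hpca, so part of both genes' counts was shared out by the counting.

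The balance of the 2 sensors is given as a description, with no test. Hpca over Ncald, as a ratio of counts per base of transcript, was 3.46 ± 0.192 in SA IP, 4.07 ± 0.156 in SA:ANH IP, 3.32 ± 0.165 in ANH IP, 5.56 ± 0.106 in RES IP and 4.26 ± 0.203 in NS IP (SD, n = 6 each). The 6 RES ratios, 5.4 to 5.65, lay above all others, of which the highest was 4.61 in NS. In Input the means lay between 2.27 ± 0.0521 in ANH and 2.65 ± 0.0732 in RES, and every IP library, from 3.15 up, lay above every Input library, up to 2.85. The longest run of identical bases between transcripts of Hpca and Ncald was 46, under the read length of 100.

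**Figure D4:**
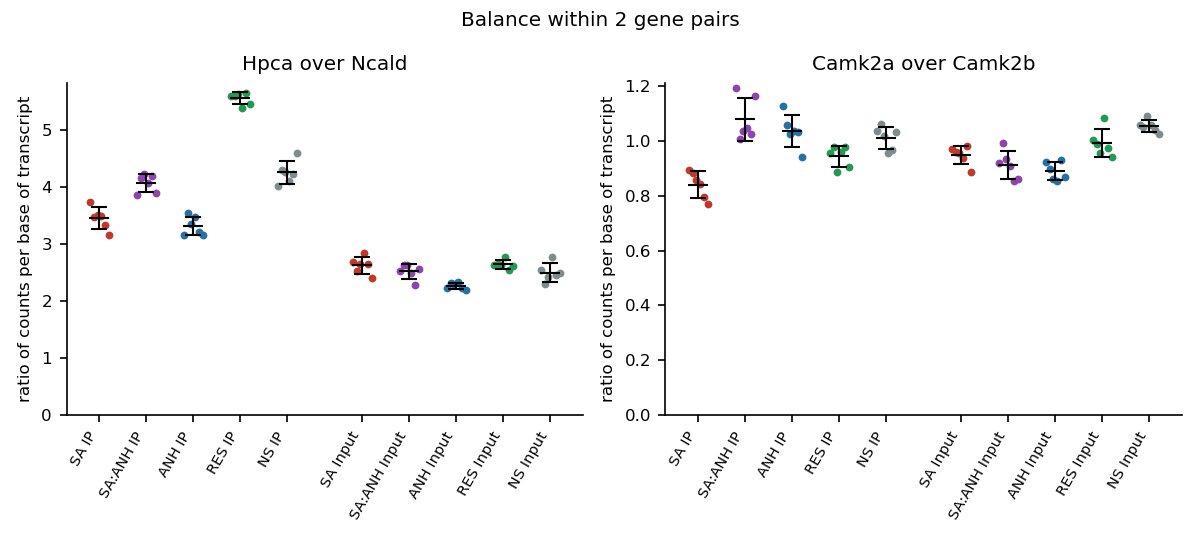
Ratio of counts per base of transcript of Hpca over Ncald (left) and Camk2a over Camk2b (right) in each library, with the mean and SD of each group of 6 in IP and in Input. RES IP stands apart for Hpca over Ncald at 5.4 to 5.65, and SA IP has the lowest mean for Camk2a over Camk2b, 0.84.

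Camk2a, the α subunit and a common mark of forebrain excitatory neurons, was lower in the pulldown of 3 subtypes. Its lowest, median and highest IP libraries were 834, 974 and 1006 CPM in SA, 1107, 1202 and 1326 in SA:ANH, 1099, 1264 and 1383 in ANH, 1193, 1272 and 1374 in RES and 1331, 1399 and 1544 in NS. All SA libraries lay below those of the other 4 groups, SA:ANH lay just below NS, and ANH and RES overlapped NS. Camk2a fell by 0.57 ± 0.049 in SA (adjusted p = 1.35e-10), 0.24 ± 0.049 in SA:ANH (adjusted p = 0.000294) and 0.17 ± 0.049 in ANH (adjusted p = 0.0246). The ANH call was lost with library totals alone (adjusted p = 0.0665). In RES the value was -0.15 ± 0.049 (adjusted p = 0.0847), and it passed in 3 of 7 alternatives, with a replicate block (adjusted p = 0.0101), with the 12 libraries alone (adjusted p = 0.0232) and with limma voom (adjusted p = 0.0314), over a range of 0.0101 to 0.128. SA differed from each other subtype, by -0.42 ± 0.049 from RES, -0.39 ± 0.049 from ANH and 0.32 ± 0.049 for SA:ANH over SA (adjusted p = 1.11e-07, 1.21e-07 and 1.08e-05), and no neighbours above it in the order of means differed. In Input Camk2a was lower than NS in ANH, 977 ± 51 against 1107 ± 28 CPM (-0.18 ± 0.041, adjusted p = 0.00926), and it stood at -0.078 ± 0.041 in SA, -0.075 ± 0.041 in SA:ANH and 0.0027 ± 0.041 in RES, none of which passed. The IP and Input differences were unlike in SA, by -0.51 ± 0.067 (adjusted p = 8.52e-08), and in SA:ANH, by -0.20 ± 0.067 (adjusted p = 0.0372), the SA:ANH value not passing with library totals alone (-0.16, adjusted p = 0.0761) or without a filter (-0.18, adjusted p = 0.0955).

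Camk2b, the β subunit, which binds actin in spines, was lower than NS in the same 3 subtypes of the pulldown. Unlike for Camk2a, SA:ANH and SA did not pass a test of their difference (-0.035 ± 0.043, 95% interval -0.12 to 0.053, adjusted p = 0.735). Its lowest, median and highest IP libraries were 900, 940 and 985 CPM in SA, 788, 939 and 986 in SA:ANH, 967, 1014 and 1020 in ANH, 1031, 1120 and 1226 in RES and 1095, 1138 and 1238 in NS. SA, SA:ANH and ANH libraries lay below every NS library and every RES library. Camk2b fell by 0.30 ± 0.043 in SA, 0.33 ± 0.043 in SA:ANH and 0.21 ± 0.043 in ANH (adjusted p = 3.02e-06, 2.78e-07 and 0.00142), and stood at -0.046 ± 0.043 in RES (95% interval -0.13 to 0.041, adjusted p = 0.694). In Input it went the other way in SA:ANH, at 956 ± 28.1 CPM against 871 ± 24.7 CPM in NS (0.13 ± 0.03, adjusted p = 0.00654). The fractions differed in SA by -0.40 ± 0.053, in SA:ANH by -0.49 ± 0.053 and in ANH by -0.26 ± 0.053 (adjusted p = 1.43e-07, 1.96e-10 and 0.00103). Camk2a over Camk2b per length was 0.84 ± 0.0496 in SA IP, 1.08 ± 0.0789 in SA:ANH IP, 1.04 ± 0.0592 in ANH IP, 0.944 ± 0.0394 in RES IP and 1.01 ± 0.0416 in NS IP. The SA ratios, 0.769 to 0.895, lay below all NS ratios, 0.955 to 1.06. NS had the highest median of the summed excitatory neuron markers as well as the highest mean of both genes, and the part of those markers was not tested.

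Of the minor CaMKII subunits, Camk2g was higher in 1 subtype of each fraction and Camk2d passed against NS in none. Camk2g, the γ subunit, which carries calmodulin to the nucleus of mouse neurons, rose in SA:ANH IP by 0.53 ± 0.093 (adjusted p = 5.54e-05). Its lowest, median and highest IP libraries were 46.5, 47.9 and 58.4 CPM in SA:ANH, against 29.8, 34.2 and 40.1 in NS, with no overlap. SA IP had 38, 40.9 and 46.8 CPM, and the difference from NS of 0.25 ± 0.093 did not pass (adjusted p = 0.0631). It passed with limma voom (0.27, adjusted p = 0.0284). In Input Camk2g was higher in SA, at 55.3 ± 3.86 CPM against 45 ± 2.41 CPM in NS (0.30 ± 0.068, adjusted p = 0.00848), and no SA library overlapped NS. SA:ANH Input, at 47 ± 4.79 CPM, did not pass against NS (adjusted p = 0.707), and the fractions differed in SA:ANH by 0.44 ± 0.12 (adjusted p = 0.00507). As a share of CaMKII message per length, γ made up 2.78% ± 0.403 in SA:ANH IP, 2.51% ± 0.196 in SA IP, 1.87% ± 0.305 in ANH IP, 1.83% ± 0.305 in RES IP and 1.6% ± 0.177 in NS IP.

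Camk2d, the δ subunit, which is also prominent in heart, passed against NS in no subtype of either fraction. Its IP means were 93.3 ± 8.72 CPM in SA, 94.9 ± 6.18 in SA:ANH, 106 ± 7.51 in ANH, 114 ± 13.3 in RES and 101 ± 5.05 in NS. The ends of that order differed: Camk2d was lower than in RES by -0.29 ± 0.069 in SA and -0.27 ± 0.069 in SA:ANH (adjusted p = 0.00317 and 0.00595), although 1 RES library at 88.6 CPM overlapped both. In Input it was lower in SA than in ANH, 71.9 ± 6.58 against 83.3 ± 5.57 CPM (-0.21 ± 0.068, adjusted p = 0.0451). That call was lost with RLE factors (adjusted p = 0.052), without a filter (adjusted p = 0.0566) and with library totals (adjusted p = 0.0643). The longest identical run between transcripts of any 2 CaMKII genes was 23 to 34 bases, under the read length, and 0 of their 100-base stretches occurred in another gene's transcripts.

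Camk4 was higher in SA IP than in NS IP, at 96.8 ± 3.9 CPM against 83.1 ± 6.43 CPM, by 0.22 ± 0.059 (adjusted p = 0.00822). Its SA libraries, at 90.3 to 101 CPM, lay above all NS libraries, at 71.1 to 87.8 CPM. RES IP stood at 94.1 ± 7.23 CPM and did not pass (0.18 ± 0.059, adjusted p = 0.0812), though it did with DESeq2 (adjusted p = 0.0421). SA:ANH and ANH stood at 88.9 ± 6.3 and 86.2 ± 5.62 CPM, with differences from NS of 0.097 ± 0.059 and 0.052 ± 0.06. In Input none of the 4 subtypes passed, with values between 0.061 and 0.16. No interaction of group and fraction passed for Camk4 (-0.10 to 0.14), so a difference between fractions was not shown.

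Camkv, a catalytically inactive relative of the kinases that binds calmodulin and is needed for dendritic spine upkeep, was the gene with the least movement in the pulldown. Its IP means were 702 ± 17.2 CPM in SA, 685 ± 76.8 in SA:ANH, 763 ± 48.5 in ANH, 712 ± 45.6 in RES and 747 ± 27.5 in NS, and no subtype passed against NS. In SA:ANH the value was -0.12 ± 0.052 (adjusted p = 0.0978), and it passed with library totals alone and with DESeq2 (-0.14 in both, adjusted p = 0.0467 and 0.0372). In SA it was -0.088 ± 0.052 (adjusted p = 0.289), and it passed with the 12 libraries alone (-0.098, adjusted p = 0.0284). In Input Camkv was higher in SA:ANH, 787 ± 47.4 CPM against 701 ± 18 CPM in NS (0.17 ± 0.038, adjusted p = 0.00693), and against SA (0.15 ± 0.038, adjusted p = 0.0246). The call against SA was lost with the 12 libraries alone (adjusted p = 0.094). ANH and RES Input stood above NS by 0.11 ± 0.038 each and did not pass (adjusted p = 0.136 and 0.119). With the 12 libraries alone both passed (adjusted p = 0.0443 and 0.0292), and RES also with a replicate block (adjusted p = 0.0394). The IP and Input differences in SA:ANH were unlike, by -0.32 ± 0.066 (adjusted p = 0.000271).

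**Figure D5:**
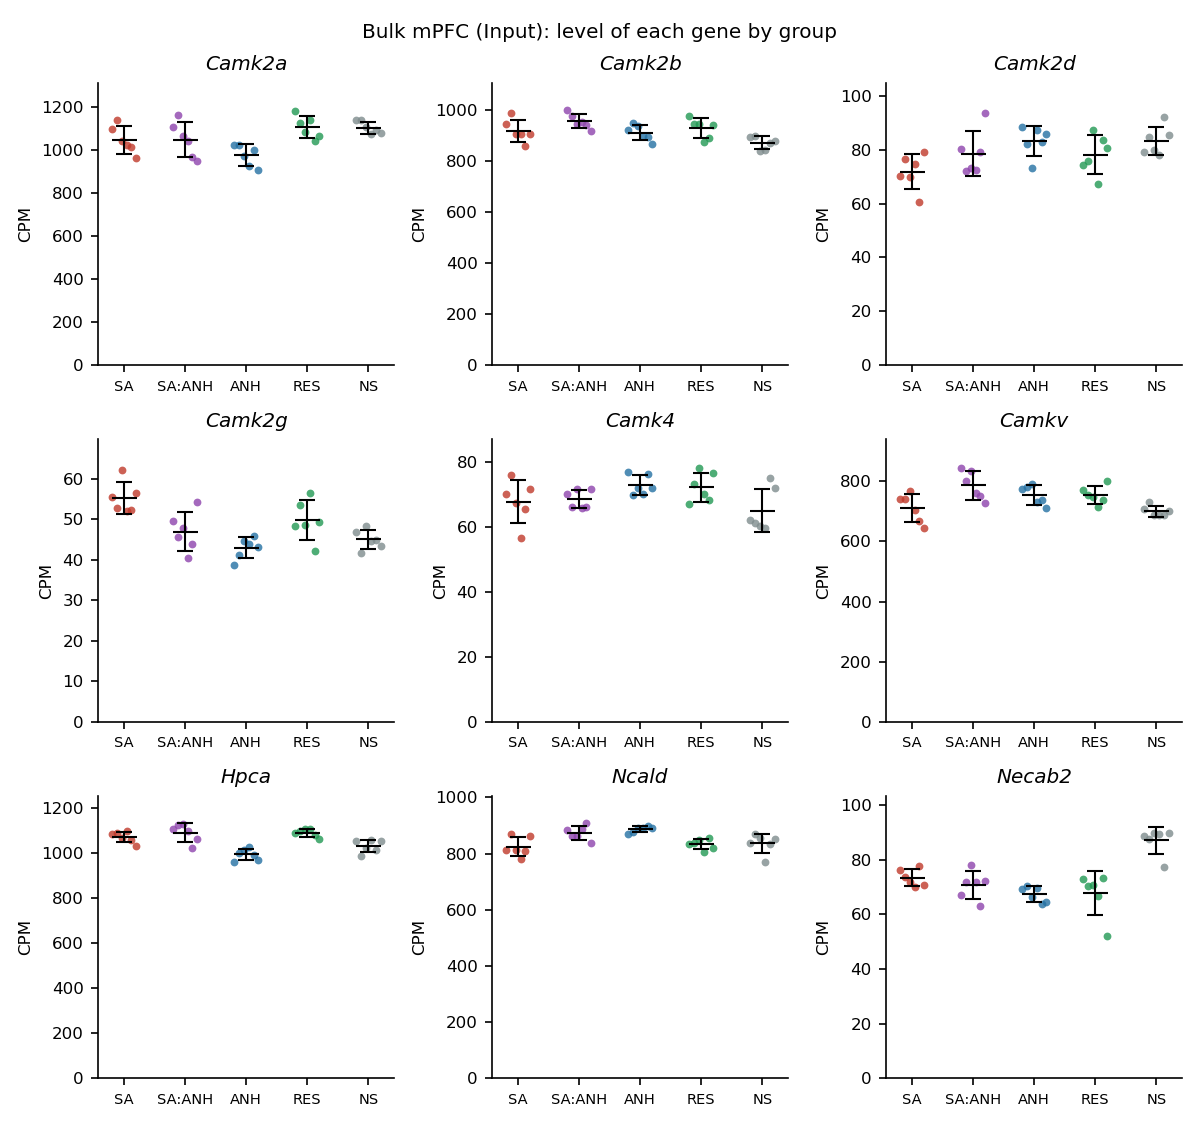
CPM of the 9 genes in each Input library (points, scaled within Input) with the mean and SD of each group of 6; every axis starts at 0. Group means lie closer together than in IP for most genes, and for Necab2 the NS libraries, at 77.2 to 89.9 CPM, have the highest mean, with the lowest of them overlapping SA and SA:ANH.

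Between subtypes in IP, SA against RES called 0 of the 9 genes higher and 5 lower (11.6% of all genes), SA:ANH against RES 2 and 3 (13.8%), and ANH against RES 1 and 3 (9.21%). SA:ANH against SA called 3 higher and 0 lower (9.53%), SA:ANH against ANH 2 and 3 (17.9%), and SA against ANH 1 and 4 (23%). In that last pair the 1 higher gene, Camk4 (0.17 ± 0.059, adjusted p = 0.0366), kept its call in 3 of 7 alternatives (adjusted p = 0.0174 to 0.13). Camk2d (-0.18 ± 0.069, adjusted p = 0.0517) was called lower in all 7 alternatives (adjusted p = 0.0158 to 0.0481). Necab2 and Camk2b were lower than RES in SA, SA:ANH and ANH alike, with Camk2b at -0.25 ± 0.043, -0.29 ± 0.043 and -0.16 ± 0.043 (adjusted p = 6.52e-05, 6.37e-06 and 0.0115). Hpca stood at -0.77 ± 0.031 in SA and -0.42 ± 0.031 in ANH against RES (adjusted p = 1.14e-19 and 4.20e-12). Ncald ran the other way, higher than RES by 0.39 ± 0.033 in SA:ANH and 0.32 ± 0.033 in ANH (adjusted p = 5.61e-11 and 1.49e-08). The genes that set SA:ANH apart from SA were Hpca, Ncald (0.47 ± 0.033, adjusted p = 4.97e-13) and Camk2a. In Input the same pairs called 0 genes for SA against RES (1.1% of all genes) and for SA:ANH against RES (0.693%). ANH against RES called 0 higher and 2 lower (4.22%), but Ncald, at 0.089 ± 0.027 (adjusted p = 0.0503), was called higher in 6 of 7 alternatives (adjusted p = 0.0259 to 0.145). In the remaining pairs, SA:ANH against SA called 1 higher and 1 lower (3.54%), SA:ANH against ANH 1 and 0 (1.64%) and SA against ANH 2 and 2 (7.88%). Camk2g was the gene with the largest of these Input values, 0.36 ± 0.068 in SA over ANH (adjusted p = 0.00043).

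The genes whose levels ran most like each of the 9 were ranked by Pearson's r of log2 CPM over the 30 IP libraries, among 8837 genes with a mean of at least 10 CPM. These libraries share their groups, so r mostly follows the group means, and it is given as a description. Necab2 ran most like Cabp7, another EF-hand protein gene (r = 0.96), Nr3c2, the mineralocorticoid receptor (0.92), and Zbtb20 (0.92). Cabp7 averaged 30.9 ± 2.97 CPM in SA IP, 34.2 ± 3.04 in SA:ANH IP, 43.5 ± 7.24 in ANH IP, 87.8 ± 5.94 in RES IP and 71.7 ± 7.6 in NS IP. Camk2b ran most like Ncdn (r = 0.96), which encodes neurochondrin, a protein that binds CaMKII, then Lrrn2 (0.91) and Ptk2b (0.90). Ncald ran most like Car10 and Osbpl1a (0.94 each) and the AMPA receptor auxiliary subunit Cacng3 (0.90). Camk2a ran most like the neuronal pentraxin receptor Nptxr (0.91), Chst1 and Nptx1 (0.89 each). Hpca ran most like Rpl10a-ps1 (0.90), a pseudogene copy of the tagged ribosomal protein's gene, then Prkca and Ptn (0.83 each). For Camkv the highest r was 0.82 (Svop, Pde2a and Ttc7b), for Camk2g 0.81 (Coa8), for Camk4 0.75 (Nfrkb) and for Camk2d 0.73 (Cnp, an oligodendrocyte marker). Among the 9 genes, Camk2b and Necab2 had r = 0.85 in IP and -0.42 in Input, Camk2a and Camk2b 0.71 and 0.26, and Hpca and Ncald 0.40 and -0.40. In Input no gene reached 0.85 with any of the 9, and the highest was Dgkz with Camk2b (0.84).

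The rest of the pathway was described with 7 lists of 57 genes. Their counts stand beside shares of all genes that passed of 9.39% higher and 7.2% lower in SA IP, 11.3% and 8.45% in SA:ANH IP, 3.02% and 4.37% in ANH IP, and 2.25% and 2.11% in RES IP. Of the calmodulin genes and the proteins that hold calmodulin in reserve, 5 of 7 stood higher and 1 lower in SA IP than in NS IP, and 4 higher and 0 lower in SA:ANH IP. The list's medians were 0.13 and 0.18. Gap43, a growth cone protein that binds calmodulin, rose by 0.49 ± 0.033 in SA IP (adjusted p = 2.44e-13). In ANH IP 1 of the 7 rose and 2 fell, among them Pcp4 by 0.46 ± 0.049 (adjusted p = 3.49e-08), and in RES IP 0 rose and 1 fell, Nrgn, by 0.18 ± 0.042 (adjusted p = 0.00861).

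Of 9 other calmodulin-dependent kinases, 2 rose and 5 fell in SA IP (median -0.24, against 0.016 for all genes), beside 9.39% of all genes higher and 7.2% lower. Camkk2, which activates CaMKIV, fell by 0.53 ± 0.058 in SA IP (adjusted p = 2.15e-08), with 217 ± 15.9 CPM against 313 ± 14.9 CPM in NS IP. Camk1 rose in SA:ANH IP by 0.33 ± 0.049 (adjusted p = 4.22e-06), where 2 of the list rose and 3 fell. In ANH IP and in RES IP 0 of the 9 rose and 2 fell, Camkk2 being one of them in each (-0.24 ± 0.058 and -0.25 ± 0.058, adjusted p = 0.00649 and 0.00686). Of 4 genes for CaMKII inhibitors and the phosphatases that reverse these kinases, 0 passed in SA IP and in RES IP. In SA:ANH IP both inhibitor genes rose, Camk2n1 by 0.55 ± 0.083 and Camk2n2 by 0.62 ± 0.078 (adjusted p = 4.43e-06 and 1.45e-07), and the phosphatase gene Ppm1f fell by 0.35 ± 0.081 (adjusted p = 0.00159). Camk2n2 also rose in ANH IP, by 0.42 ± 0.078 (adjusted p = 0.000384).

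Calcineurin is the calmodulin-dependent phosphatase. Ppp3ca, its main catalytic subunit in brain, fell by 0.14 ± 0.032 in SA IP (adjusted p = 0.00241) and rose by 0.21 ± 0.032 in SA:ANH IP, 0.11 ± 0.032 in ANH IP and 0.16 ± 0.032 in RES IP (adjusted p = 7.67e-06, 0.0356 and 0.0014). Of the 9 genes of this list, 0 rose and 3 fell in SA IP, 3 rose and 0 fell in SA:ANH IP, 2 rose and 0 fell in ANH IP, and 1 rose and 0 fell in RES IP. Among 8 tested neuronal calcium sensors outside the 9 genes, 1 rose and 3 fell in SA IP and 3 rose and 2 fell in SA:ANH IP. In ANH IP 3 rose and 0 fell, with Vsnl1, a visinin-like relative of Hpca, at 0.23 ± 0.054 (adjusted p = 0.00607), and in RES IP 2 rose and 0 fell.

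Of 8 tested EF-hand proteins outside the 9 genes, 1 rose and 4 fell in SA IP, 2 rose and 3 fell in SA:ANH IP and in ANH IP, and 0 rose and 3 fell in RES IP. Cabp7 fell by 1.22 ± 0.092, 1.07 ± 0.092 and 0.72 ± 0.091 in SA, SA:ANH and ANH IP (adjusted p = 4.81e-12, 5.70e-11 and 1.09e-06). Necab1, a paralog of Necab2, went against it: it rose by 0.70 ± 0.092 in ANH IP (adjusted p = 2.07e-06). Calb1, calbindin, averaged 61.4 ± 6.81 CPM in SA IP, 158 ± 17.4 in SA:ANH IP and 92.8 ± 5.28 in NS IP (-0.60 ± 0.066 and 0.77 ± 0.065, adjusted p = 2.15e-08 and 4.47e-11). Calb1 also belongs to the layer 2/3 and intratelencephalic marker list, whose summed level was 513 to 556 CPM in SA IP, 647 to 700 in SA:ANH IP and 600 to 629 in NS IP; its part was not tested. Of 10 effectors of calcium and calmodulin, 0 rose and 5 fell in SA IP (16.6% of all genes passed), 1 rose and 4 fell in SA:ANH IP (19.7%), 1 rose and 2 fell in ANH IP, and 1 rose and 1 fell in RES IP. Nos1, neuronal nitric oxide synthase, fell in every subtype, to 61.7 ± 5.95 CPM in SA IP, 61.7 ± 8.02 in SA:ANH IP, 69.6 ± 4.73 in ANH IP and 68.4 ± 7.24 in RES IP, against 97 ± 6.41 CPM in NS IP. Its log2 fold changes were -0.65 ± 0.079, -0.65 ± 0.079, -0.48 ± 0.079 and -0.51 ± 0.079 (adjusted p = 1.30e-07, 8.38e-08, 8.44e-05 and 5.94e-05). Adcy1, the calmodulin-stimulated adenylyl cyclase, fell by 0.51 ± 0.045 in SA IP, 0.23 ± 0.045 in SA:ANH IP and 0.15 ± 0.045 in ANH IP (adjusted p = 1.97e-10, 0.000185 and 0.0355). In Input, at most 2 genes of any of these 7 lists, which hold 4 to 10 genes each, passed against NS in any subtype. Among all genes, 2.83% passed there in SA, 5.65% in SA:ANH, 2.62% in ANH and 3.23% in RES.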

How the data were processed

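The authors deposited a table of expected counts, fractional where reads were shared out, with 55414 genes as rows and 60 libraries as columns. The values themselves show the unit: 88.4% were whole within 0.000001. That share counts zeros as whole, and 19770 of the 55414 genes were 0 in every library. Per the submitters' processing notes, the build was mm10 and the tools Bowtie2 2.2.3, TopHat2 2.0.13 and Trimmomatic 0.32, listed without roles. No source used here gives the counting tool or strand setting. The table's gene positions are not those of GRCm38 (0.754% of 38986 matched genes had the same start), so only RefSeq positions, with their own build, are printed.

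Per the labels' protocols, libraries were made with SMART-Seq v4 and TruSeq v2 kits and read as pairs of 100 bases. Reads carry no molecular identifiers, so counts are not independent molecules.

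Columns were matched to samples by name, and 0 value columns stayed unmatched. Counts were rounded, filtered with filterByExpr (minimum count 10), scaled by TMM and tested with edgeR 4.0.16 in R 4.3.3 by its quasi-likelihood test, with Benjamini-Hochberg adjustment over all genes at 0.05. The fits held 16670 genes in IP, 18170 in Input and 18937 in both. The 30 libraries of a fraction shared one estimate of the spread, and the 60-library fit gave IP against Input (mean over 5 groups) and the differences between fractions. The SE of a log2 fold change was its size over the square root of the test's F statistic. Intervals were built from that SE with a t quantile. Log2 CPM used a prior count of 2. No 2 libraries of a group differed by as little as sampling noise. Over all genes the spread between replicates (edgeR's common coefficient) was 23.7% in IP and 18.6% in Input, and 3.48% to 11% for the 9 genes. Tests were also run on counts simulated from edgeR's own fitted spread with independent libraries. That run cannot show how they behave where libraries are not independent. The 9 genes entered every comparison. Other genes were named by rule: up to 3 per list and comparison with the smallest p among those that passed, and the most alike by r with predicted genes left out. The members and lists were chosen with earlier results of these data known. Alternatives were RLE factors, library totals, DESeq2 1.42.0, limma 3.58.1 voom with quality weights, no filter, the 12 libraries compared, and a replicate block.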

Additional observations from a re-analysis of the deposited data

Results flagged for a closer look

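Across the 90 sets of 6 libraries (9 genes in 10 groups), 8 held a library farther from its neighbour than Dixon's 95% limit allows; chance flags about 1 in 20 sets. In IP these were Camk2a in SA replicate 6 (834 CPM), Camk2d in SA:ANH replicate 1 (82.5 CPM) and in RES replicate 5 (88.6 CPM), Ncald in SA replicate 1 (486 CPM) and Necab2 in RES replicate 5 (241 CPM). In Input they were Ncald in NS replicate 4 (770 CPM), Necab2 in RES replicate 6 (51.9 CPM) and Necab2 in NS replicate 5 (77.2 CPM). RES IP replicate 5 was thus the lowest of its group for Camk2d and the highest for Necab2.

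The difference of a subtype from NS was unlike in IP and Input, by a test of that difference in one fit, in 15 of 36 combinations of gene and subtype. The same test passed for 9.05% of all genes in SA, 15.2% in SA:ANH, 3.62% in ANH and 2.69% in RES. All 4 subtypes share the NS libraries, so the combinations are not independent. On the log2 scale, IP minus Input, the values in SA were -0.51 for Camk2a, -0.40 for Camk2b, -0.48 for Hpca and -0.62 for Necab2. In SA:ANH they were -0.20 for Camk2a, -0.49 for Camk2b, 0.44 for Camk2g, -0.32 for Camkv, 0.20 for Hpca, 0.27 for Ncald and -0.47 for Necab2. In ANH they were -0.26 for Camk2b and 0.22 for Ncald, and in RES 0.28 for Hpca and 0.59 for Necab2. Necab2 in RES (0.23 in IP, -0.36 in Input) and Camk2b in SA:ANH (-0.33 in IP, 0.13 in Input) passed against NS in opposite directions in the 2 fractions, and no other of the 36 did in the main fits. With library totals alone and with DESeq2, Camkv in SA:ANH also passed lower in IP and higher in Input.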

How the results depend on the processing

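Over 225 pairs of gene and comparison and 7 alternatives, 1461 of 1530 values kept their side of the threshold. Of the rest, 19 kept the direction but no longer passed and 50 newly passed. A change of sign was counted only where the main or the alternative fit passed, and 0 values changed in that way. Values near 0 that passed in neither fit could change sign and still count among the 1461. The number of the 9 genes called moved by over 1.5 times in these cases. RES against NS in Input called 1 gene, and 4 with the replicate block, 3 with limma voom and 2 with the 12 libraries alone. The difference of RES from NS between fractions called 2 and, with the block, 4. ANH against RES in Input called 2 and, with DESeq2, 4. SA:ANH against SA in Input called 2, but 1 without a filter and 0 with the 12 libraries alone. SA:ANH against ANH in Input called 1 and, with the block, 2. Over all genes, SA against RES in Input called 200, but 131 without a filter, 352 with DESeq2 and 117 with the 12 libraries alone. SA:ANH in Input called 126 against RES (237 with DESeq2, 77 with the 12 libraries), 643 against SA (276 with the 12 libraries) and 298 against ANH (492 with DESeq2, 173 with the 12 libraries). The causes were not tested.

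Replicate numbers were checked for pairing. Deviations from group means of an IP library and the Input library that bears its group and number correlated at -0.034 to 0.23, with 9 of 30 over 0.1 and 13 of 30 best with their own number, and groups within a fraction at -0.16 to 0.23. The 13 best matches are more than equal chance among a group's Input libraries would give. Whether libraries of equal group and number came from the same animal was not tested. The main fits did not take the numbers as pairs and treated all libraries as independent. The replicate block newly called 11 of 225 values and lost 0. No alternative shifted the median of all genes by over 0.049 in size. Depth was at least 662 counts per gene and library for the 9 genes, with Camk2g the shallowest, so its values carry the most counting error.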
